A study of Mus musculus with 24 samples.

Results

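Mm001 is 1 of the 120 mouse probes on the Sterolgene V1 array, a focused 2-colour design on which each probe is printed as 3 spots. It was chosen by measured values, for its low log2 ratio of phenobarbital-treated to vehicle liver in PXR-deficient mice. What follows is therefore a description of its values, and no test of that difference is given. The sources used here do not pair the probe with a gene, so it is given by its number and no gene, role or sequence is attached to it. Of the 120 probes, 80 passed the filter on dim probes, and Mm001 was among them.

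The study measured total RNA from the livers of male C57BL/6J mice that received phenobarbital by intraperitoneal injection at 100 mg/kg, with RNA taken 12 h later. There were 6 arrays in each of 4 genotypes, which were PXR-deficient, CAR-deficient, CAR/PXR-deficient (lacking both receptors) and wild type (WT). On each array the RNA of a treated liver, labelled with Cy5, was set against Cy3-labelled RNA pooled from 6 livers. The pooled livers were of the genotype of the treated liver, and came from mice given the vehicle, 5% DMSO in corn oil, 12 h earlier. The labels give an age of 9 to 12 weeks for the deficient mice and none for WT mice. They name the deficient mice only by the missing receptor, without the allele or how it was made. They do not say whether the 6 arrays of a genotype came from 6 mice, so the SDs below are those between arrays and may in part be technical.

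CAR (constitutive androstane receptor) and PXR (pregnane X receptor) are nuclear receptors of hepatocytes that switch on genes for the uptake, oxidation, conjugation and export of drugs and other foreign compounds. Phenobarbital is the classical inducer acting through CAR, which it moves into the nucleus by an indirect route, and it can also bind PXR in some species. Both receptors also act on genes of cholesterol, bile acid, lipid and glucose metabolism, and their sets of target genes overlap. Because the probes carry no gene names here, neither the receptors' own transcripts nor liver markers could be used to check the labels.

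The design has 3 features that bear on every value. The dyes were never swapped, so a dye bias of the probe is not cancelled in a single ratio, and it drops out of a difference between genotypes only if it is equal in both. The vehicle RNA of each genotype was a single pool, so its 6 Cy3 values are repeat hybridisations of 1 RNA mixture and carry no spread between vehicle mice. In bulk liver RNA, fewer cells of a type and less RNA per cell cannot be told apart.

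Some arrays stood apart within their genotype. Arrays 1 and 2 of PXR-deficient liver were no further apart than replicate spots are, within sampling noise, with a variance ratio of 1.04, where 1 is spot noise alone. They were counted as 1 sample, which left 23 samples and n = 5 for PXR-deficient liver. The other 59 of 60 pairs of arrays within a genotype gave ratios of 1.79 to 52.9. WT replicates 2 and 6 resembled each other and no other WT array. The SD of their probe-by-probe difference was 0.18 on the log2 scale, against 0.69 to 0.97 between either of them and another WT array, and 0.34 to 0.68 among the other 4. Of 41 probes measured on all WT arrays, both lay above the other 4 arrays for 13 and below them for 12. Values of these arrays are therefore given singly. Between 45 and 120 probes were usable per array, with a median of 81.

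Mm001 itself was measured throughout. None of its 72 spots was flagged (0 of 72), and 0 had saturated pixels. The pool channel was above background on all 24 arrays and the treated channel on 22. The exceptions were PXR-deficient replicate 5, with 1 of 3 treated spots above background, and WT replicate 4, with 0 of 3. The SD of the 3 spots' log2 ratios on an array was 0.03 to 0.26, with a median of 0.08. In PXR-deficient liver the median spot SD was 0.14. Its replicates 4, 5 and 6 had spot SDs of 0.20, 0.20 and 0.26, about as large as or larger than the SD of 0.20 between its samples.

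In PXR-deficient liver, the Mm001 signal after phenobarbital was well below that in the vehicle pool, while in CAR-deficient and CAR/PXR-deficient liver treated and vehicle signals were nearly equal after normalization within each array. For CAR/PXR-deficient liver this rests on that centring, since its mean log2 ratio was 0.03 there, 1.13 when arrays were centred on the spike-ins, 1.39 in the authors' deposited table and -0.84 without normalization. The CAR-deficient mean was -0.08 after normalization, 0.56 when centred on the spike-ins and 0.53 in the authors' deposited table. In WT liver the arrays split, with 2 well above their pool and 4 below it. The log2 ratios of PXR-deficient replicates 1 to 6 were -2.11, -1.92, -2.02, -2.44, -2.12 and -1.93. All of these arrays lay below every array of the other genotypes, whose lowest value was -1.18 in WT replicate 5. Of 34 probes with a ratio on all 24 arrays, 2 (5.88%) had all PXR-deficient arrays below all others, Mm001 and Mm102. The rule that chose Mm001 used this contrast.

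The CAR-deficient arrays had log2 ratios of -0.11, 0.29, -0.38, -0.01, -0.14 and -0.11 in replicates 1 to 6. The CAR/PXR-deficient arrays had log2 ratios of 0.07, -0.15, -0.05, 0.32, 0.22 and -0.24. Both sets straddled 0 and overlapped over most of their range. WT replicates 2 and 6 had log2 ratios of 1.48 and 1.64. WT replicates 1, 3, 4 and 5 had -0.46, -0.41, -0.41 and -1.18. WT replicates 2 and 6 were thus the highest of the 24 arrays, and WT replicate 5 the lowest outside PXR-deficient liver.

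**Figure D1:**
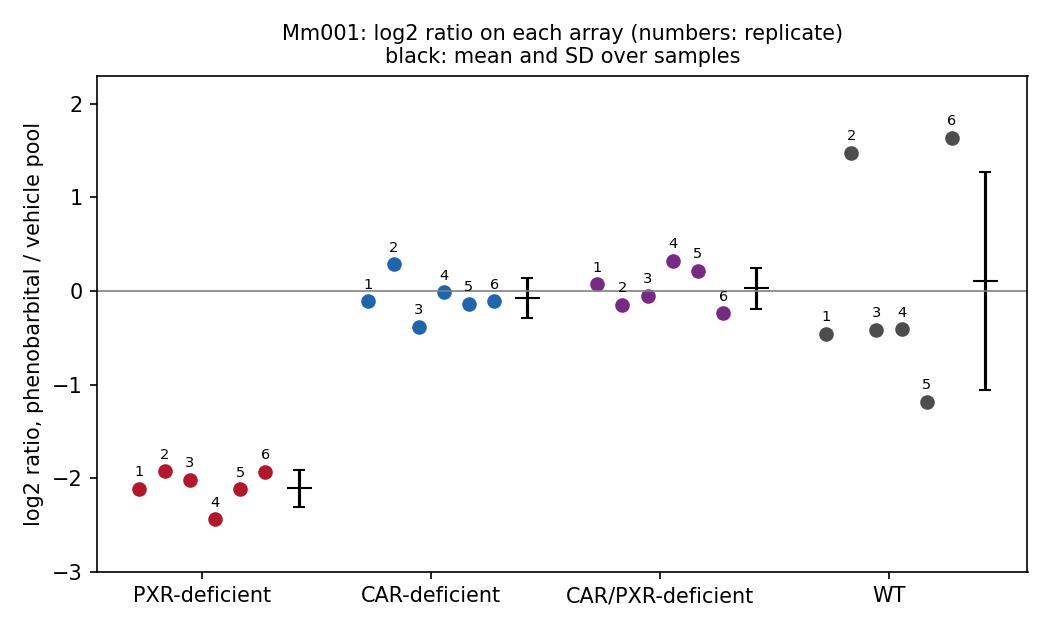
Log2 ratio of phenobarbital-treated liver to the vehicle pool for Mm001 (y axis) on each array, by genotype (x axis), with replicate numbers. Black bars give the mean and SD over samples (n = 5 for PXR-deficient, 6 for the others). All PXR-deficient arrays lie at -1.92 or below, and the WT arrays split into 2 above 1.4 and 4 below 0.

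The mean log2 ratio was -2.10 ± 0.20 (SD, n = 5) in PXR-deficient liver, a 4.30-fold lower signal than in its pool. It was -0.08 ± 0.22 (SD, n = 6) in CAR-deficient liver. It was 0.03 ± 0.22 (SD, n = 6) in CAR/PXR-deficient liver. The WT mean of 0.11 ± 1.16 (SD, n = 6) averages the split arrays and describes none of them. In order from the lowest, the means of CAR-deficient, CAR/PXR-deficient and WT liver were neighbours that differed by less than their SDs, and only PXR-deficient liver stood apart. Without WT replicates 2 and 6 the WT mean was -0.62, which moved WT from the highest of the 4 means to second from the bottom. Leaving out WT replicate 6 alone gave a WT mean of -0.20, and leaving out WT replicate 5 gave 0.37.

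The differences between genotypes, from a limma group-means fit over all probes with a shared estimate of the spread, followed this order. PXR-deficient minus WT was -2.21 with a standard error of 0.35. PXR-deficient minus CAR-deficient was -2.03, and CAR/PXR-deficient minus PXR-deficient was 2.13, with the same standard error. The other 3 differences, CAR-deficient minus WT at -0.19, CAR/PXR-deficient minus WT at -0.08 and CAR/PXR-deficient minus CAR-deficient at 0.11, were each smaller than their standard error of 0.34. The shared spread was widened by the WT arrays. Without WT replicates 2 and 6, PXR-deficient minus WT was -1.49 with a standard error of 0.17, CAR-deficient minus WT was 0.54 and CAR/PXR-deficient minus WT was 0.64, both with a standard error of 0.16. The sign of those last differences thus turned with these WT arrays, as did their size.

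Only probes that passed the filter were ranked. Among them, the mean log2 ratio of Mm001 was extreme in PXR-deficient liver and lay well inside the range in the other genotypes. The WT mean hides the split described above. Its mean log2 ratio in PXR-deficient liver was the lowest of 80 probes, and the next was Mm024 at -1.05. On each of the 6 PXR-deficient arrays, 0 of the 46 to 79 probes with a ratio lay below it. In CAR-deficient liver, by contrast, 25 of 78 probes had a lower mean, in CAR/PXR-deficient liver 41 of 80, and in WT liver 49 of 80. The medians over all probes were -0.01 in PXR-deficient, 0.01 in CAR-deficient, 0.01 in CAR/PXR-deficient and 0.01 in WT liver. PXR-deficient minus WT was lowest for Mm001 as well, followed by Mm024 at -1.90. PXR-deficient minus CAR-deficient was the lowest of 78, followed by Mm059 at -1.09.

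The spread of Mm001 between samples was larger in WT liver than in the 3 deficient genotypes, with WT replicates 2 and 6 far from the rest. In WT liver its SD of 1.16 was the largest of 58 probes, whose median SD was 0.38. In PXR-deficient liver its SD of 0.20 was on the small side, with 39 of 48 probes more variable. In CAR-deficient liver 29 of 77 probes had a larger SD, and in CAR/PXR-deficient liver 48 of 73. In WT liver replicates 2 and 6 (1.48 and 1.64) lay far from the other 4 arrays (-1.18 to -0.41), and the SD of Mm001 was similar in the 3 deficient genotypes.

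A ratio can be low because the treated signal is low or because the pool signal is high, so the level in each channel is given. These levels are compared after scaling between arrays, and why the ratio was low was not tested. On the normalized log2 scale, the level in the treated channel was 9.34 ± 0.18 (SD, n = 5) in PXR-deficient liver, 9.54 ± 0.21 (SD, n = 6) in CAR-deficient liver and 9.98 ± 0.34 (SD, n = 6) in CAR/PXR-deficient liver. In WT liver, replicates 2 and 6 reached treated levels of 11.71 and 11.80, while the remaining 4 arrays lay at 8.66 to 9.51. The treated level of PXR-deficient liver thus lay inside the range of the other genotypes. By array it ran from 9.14 to 9.62, and WT replicates 1 and 5 (8.66 and 9.06) were below all PXR-deficient arrays.

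The vehicle pools differed more. The pool level was 11.45 ± 0.28 (SD, n = 5, with arrays 1 and 2 averaged) for PXR-deficient liver, 9.61 ± 0.15 (n = 6) for CAR-deficient, 9.95 ± 0.31 (n = 6) for CAR/PXR-deficient and 9.92 ± 0.43 (n = 6) for WT liver. By array, the PXR-deficient pool gave 11.73, 11.43, 11.45, 11.82, 11.30 and 11.07 in replicates 1 to 6. The other pools gave at most 10.36, in CAR/PXR-deficient replicate 2. The PXR-deficient pool lay above every other pool on all arrays, which held for 2 of 74 probes (2.7%). Since each genotype has 1 pool, it cannot be told apart whether vehicle-treated PXR-deficient mice in general or this mixture had the high level.

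**Figure D2:**
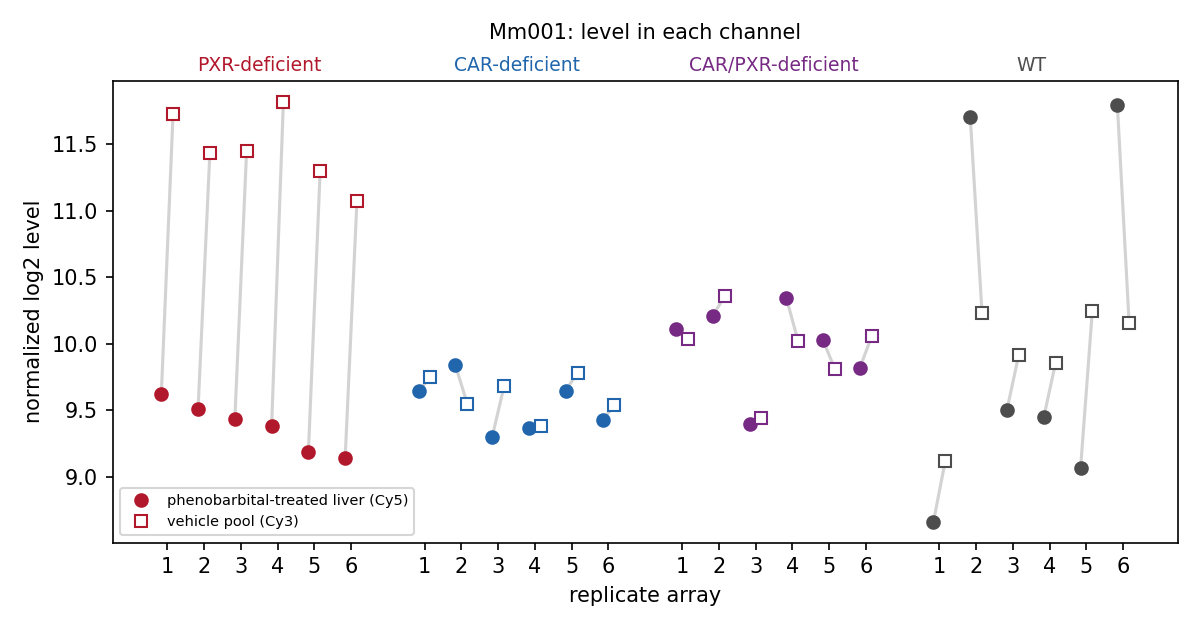
Normalized log2 level of Mm001 (y axis) on each replicate array (x axis), by genotype, in the treated channel (filled circles) and the vehicle pool (open squares), joined by a line. The open squares of PXR-deficient liver (11.07 to 11.82) and the filled circles of WT replicates 2 and 6 (11.71 and 11.80) are the high values, and all other points lie at 10.36 or below.

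The difference between genotypes splits exactly into its channels. Of the -2.21 between PXR-deficient and WT liver, -0.69 came from the treated channel, and the pool channel was 1.52 higher in PXR-deficient liver. Without WT replicates 2 and 6 the pool part was 1.66 and the treated part was 0.17, so that the treated level of PXR-deficient liver was then slightly above that of WT liver. Against CAR-deficient liver, the PXR-deficient pool was 1.83 higher, a 3.56-fold difference, and the treated level differed by -0.20. For CAR/PXR-deficient minus PXR-deficient liver, the pool part was -1.49 and the treated part 0.64. In each of these comparisons the pool channel held the larger share.

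The pool level is part of the ratio by which Mm001 was chosen, so a high place among the pool differences is partly given by that choice. The pool level of PXR-deficient liver minus the mean of the other 3 pools was 1.62 for Mm001, the largest of 80 probes, followed by Mm024 at 1.35. The median over all 80 was -0.04. The corresponding difference in the treated channel was -0.51 for Mm001, with 65 probes above it, 14 below it and a median of -0.19. The WT treated level averaged 10.03 with WT replicates 2 and 6 and 9.17 without them. The size and rank of the treated difference thus rest in part on these arrays. In the pool channel, the lowest PXR-deficient array exceeded the highest array of the other genotypes by 0.71, the widest such gap among the 74 probes, and Mm024 followed at 0.07.

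**Figure D3:**
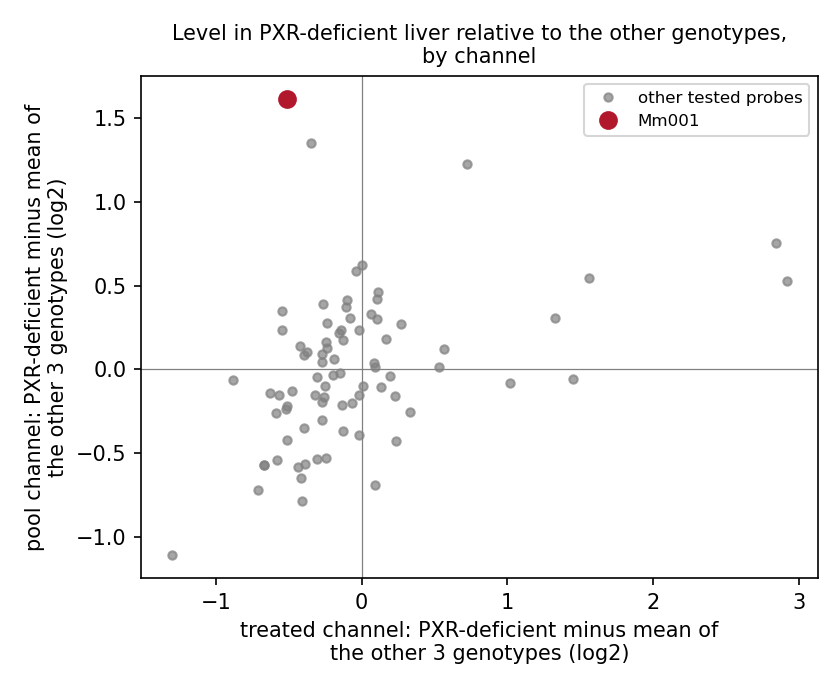
For each of the 80 probes that passed the filter, the level in PXR-deficient liver minus the mean of the other 3 genotypes, in the treated channel (x axis, log2) and in the pool channel (y axis, log2). Mm001 (large point) lies highest on the y axis at 1.62 and at -0.51 on the x axis. Its place on the x axis rests in part on WT replicates 2 and 6.

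Brightness ranks within an array need no scaling between arrays, and they set the same values apart, the PXR-deficient pool and the treated channel of WT replicates 2 and 6. The order of the remaining genotypes was not the same as by level. In the treated channel, the median rank was 45 in PXR-deficient liver and 48 in CAR-deficient liver, although the mean level was lower in PXR-deficient liver. A rank reflects the probe's labelling and binding as well as its transcript, so ranks are compared only between arrays. In the treated channel Mm001 ranked 39 to 47 of 120 in PXR-deficient liver, with 1 the brightest, 40 to 52 in CAR-deficient liver and 38 to 49 in CAR/PXR-deficient liver. It ranked 19 and 20 in WT replicates 2 and 6, and 50 to 71 in the other 4 WT arrays. In the pool channel it ranked 18 to 20 for PXR-deficient liver, 41 to 50 for CAR-deficient, 38 to 47 for CAR/PXR-deficient and 27 to 54 for WT liver. The pool ranks of PXR-deficient liver spanned 3 places and did not reach the best rank of another pool, 27 in WT replicate 5. Relative to the median of all probes in the channel, the PXR-deficient pool level was 1.63 to 2.66 higher, and no other pool exceeded 1.28.

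**Figure D4:**
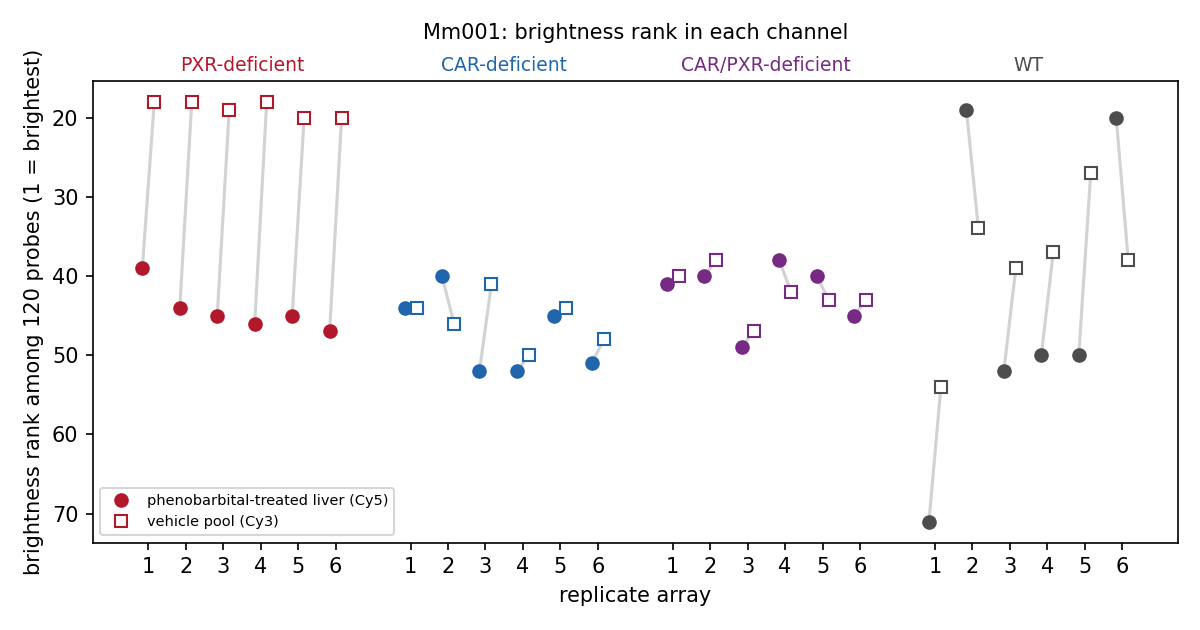
Brightness rank of Mm001 among the 120 probes (y axis, 1 the brightest, drawn at the top) on each replicate array (x axis), in the treated channel (filled circles) and the vehicle pool (open squares). PXR-deficient pools rank 18 to 20, and the treated channel of WT replicates 2 and 6 ranks 19 and 20.

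The background-subtracted signals show what these ranks rest on, on a scale of scanner units that differs between arrays. In PXR-deficient liver the treated signal was 400 to 744, and the pool signal was 1337 to 5349. On every one of these arrays the pool spots were the brighter ones. In CAR-deficient liver the signals were 280 to 1115 in the treated channel and 410 to 899 in the pool. In CAR/PXR-deficient liver they were 359 to 1698 in the treated channel and 924 to 3542 in the pool. In WT liver they were 217 to 3066 in the treated channel and 450 to 1572 in the pool. WT replicate 1, with the highest treated signal of Mm001 in these units, had the lowest Mm001 level after normalization, in both channels (8.66 treated, 9.12 pool).

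WT replicates 2 and 6 were set apart by Mm001 more than by any other probe measured on all WT arrays. The lower of their log2 ratios exceeded the highest of the other 4 by 1.88, the largest gap among 41 probes, and Mm059 followed at 1.03. A gap in this direction was seen for 13 of the 41 probes (31.7%). The widest gap in the other direction was 1.25, for Mm061. The gap of Mm001 lay in the treated channel, where 12 of 77 probes (15.6%) had one. There the lower of both exceeded the other WT arrays by 2.20 and the other 22 arrays by 1.36, each time the largest of the probes with a level on all arrays concerned (77 and 74 probes), followed by Mm024 at 1.71 and 0.91. In the pool channel WT replicates 2 and 6 (10.23 and 10.16) lay within the 9.12 to 10.25 of the other 4 arrays. Their treated levels fell within the 11.07 to 11.82 of the PXR-deficient pool, although the dyes differ.

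Mm024 appears beside Mm001 in most of these rankings, but 47 of its 72 spots were flagged, and 14 of the 24 arrays gave no ratio for it. Its channel levels, also those ranked above, kept flagged spots, and on these 14 arrays they rest on flagged spots alone. It gave a log2 ratio on 4 PXR-deficient arrays (-1.32 to -0.73), 4 CAR/PXR-deficient arrays (0.22 to 1.45), 2 WT arrays (0.19 in replicate 1 and 1.51 in replicate 6) and 0 CAR-deficient arrays. Its pool level was 8.92 to 10.15 for PXR-deficient liver and 7.58 to 8.85 for the other 3 genotypes. Its treated level was 10.26 and 10.31 in WT replicates 2 and 6, and 7.62 to 8.55 in the other 4. In both respects Mm024 was high where Mm001 was high. With ratios in fewer than 20 samples it did not enter the comparison of patterns below.

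Among 45 other probes with a log2 ratio in at least 20 samples, the pattern of Mm102 was most like that of Mm001, with a Pearson r of 0.87 over 23 samples. Mm150 followed with r = 0.74 and Mm131 with r = 0.69. The most opposite patterns were those of Mm036 at r = -0.82, Mm051 at r = -0.79 and Mm037 at r = -0.74. The samples of a genotype share a pool, so these are not 23 independent points, and the values describe likeness only. Spearman's rho was 0.64 for Mm102, 0.54 for Mm150 and 0.64 for Mm131, and -0.77, -0.73 and -0.72 for Mm036, Mm051 and Mm037. By Spearman's rho other probes came first, Mm070 at 0.77 among the like and Mm027 at -0.80 among the opposite patterns, with Pearson r of 0.67 and -0.69. Without the 2 samples farthest from the median of Mm001, PXR-deficient replicates 4 and 5, r was 0.84 for Mm102 and -0.74 for Mm036.

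The samples fall into separate clusters, and the likeness rested largely on them. Without PXR-deficient liver, r over 18 samples was 0.63 for Mm102, 0.47 for Mm150 and 0.76 for Mm131. When WT replicates 2 and 6 were left out as well, r over 16 samples was -0.01 for Mm102, -0.30 for Mm150 and 0.65 for Mm131. Among the opposite probes it was then -0.30 for Mm036, -0.11 for Mm051 and -0.49 for Mm037. Mm070 and Mm027, named after their values were seen, had r of 0.79 and -0.72 over these 16 samples. Mm102 thus shared with Mm001 the low PXR-deficient and the high WT values, and within the remaining samples its r was close to 0.

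**Figure D5:**
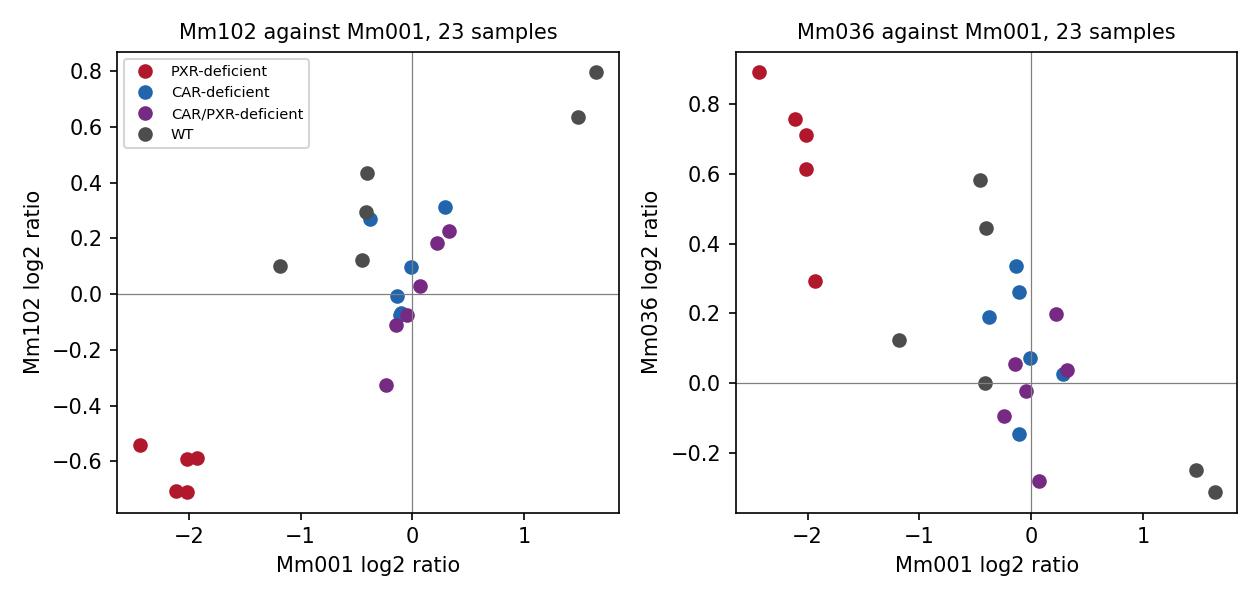
Log2 ratio of Mm102 (left panel, y axis) and Mm036 (right panel, y axis) against that of Mm001 (x axis) in 23 samples, coloured by genotype. For Mm102 the PXR-deficient samples lie at the lower left and WT replicates 2 and 6 at the upper right, with the other samples in between. For Mm036 these ends are inverted.

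The named probes differed in size and in the channel. Mm102 had a log2 ratio of -0.63 ± 0.08 (SD, n = 5) in PXR-deficient liver and 0.64 and 0.80 in WT replicates 2 and 6, against 0.10 to 0.43 in the other 4 WT arrays. Its PXR-deficient level minus the mean of the other genotypes was -0.55 in the treated channel and 0.24 in the pool, so the larger part was in the treated channel, unlike for Mm001. Mm150 had a log2 ratio of -1.04 ± 0.50 (SD, n = 5) in PXR-deficient liver, with level differences of -0.54 in the treated channel and 0.35 in the pool. Mm131 had -0.59 ± 0.23 (SD, n = 5), with 0.72 in the treated channel and 1.23 in the pool. Of these 3 probes, Mm131 had the largest mean pool difference, and its treated level was high too. Only Mm001 and Mm024, of 74 probes, had the PXR-deficient pool above every other pool on all arrays. In WT replicates 2 and 6 Mm131 had log2 ratios of 0.72 and 0.92, against -1.47 to -0.05 in the other 4.

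The opposite probes were above 0 in PXR-deficient liver, with log2 ratios of 0.65 ± 0.23 for Mm036, 1.44 ± 0.21 for Mm051 and 1.52 ± 0.51 for Mm037 (SD, n = 5 each). Mm036 was -0.25 and -0.31 in WT replicates 2 and 6, below the other 4 WT arrays. Mm037 was 0.34 and 0.05 there, against 0.75 to 1.83 in the other 4. Mm051 did not separate these arrays, with -0.07 and -0.41 in WT replicates 2 and 6 and -0.11 to 1.12 in the other 4. The PXR-deficient level of Mm037 was 1.56 higher than the mean of the other genotypes in the treated channel and 0.54 higher in the pool. The difference of Mm037 thus lay mainly in the treated channel, whereas that of Mm001 lay mainly in the pool.

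In the deposited values the PXR-deficient arrays were again the lowest, but the order of the rest differed. In the authors' deposited table Mm001 was -1.81 to -1.06 in PXR-deficient liver, 0.17 to 0.72 in CAR-deficient liver and 0.49 to 2.64 in CAR/PXR-deficient liver. WT replicates 2 and 6 were 0.84 and 1.25 in the authors' deposited table, and the other 4 WT arrays were -0.95 to -0.39. The highest PXR-deficient value lay below every other array there by 0.10, against 0.74 in the loess-normalized ratios. The array medians of the deposited table ran from -0.43 to 2.95, and the highest values of Mm001, 2.55 and 2.64 in CAR/PXR-deficient replicates 1 and 2, stood beside array medians of 2.65 and 2.95. After each array's median was subtracted, the deposited values were -2.09 to -1.57 in PXR-deficient liver, -0.35 to 0.17 in CAR-deficient liver, -0.32 to 0.34 in CAR/PXR-deficient liver, 1.03 and 1.19 in WT replicates 2 and 6, and -0.86 to -0.36 in the other 4 WT arrays. The gap between PXR-deficient liver and the rest was then again wide. The means of the centred deposited values were -0.06 in CAR-deficient, 0.01 in CAR/PXR-deficient and -0.02 in WT liver, so that CAR/PXR-deficient and WT liver changed places relative to the loess-normalized means.

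Without any normalization the PXR-deficient arrays were no longer apart. The raw log2 ratios were -2.89 to -1.50 in PXR-deficient liver, -1.15 to 0.93 in CAR-deficient liver, -2.32 to 0.08 in CAR/PXR-deficient liver and -1.79 to 1.71 in WT liver. Raw here means background-corrected but not normalized. The lowest array outside PXR-deficient liver was CAR/PXR-deficient replicate 2, on which the median probe had a raw log2 ratio of -2.12. On that array Mm001 was thus low together with the whole array, while on the PXR-deficient arrays, with raw array medians of -0.96 to 0.78, it was low against the other probes.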

How the data were processed

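Mm001 and the probes compared with it were chosen with earlier results of these data known. Mean pixel intensity and local background intensity were read for both channels of every spot, with the percent of pixels saturated and the spot flags, per the file headers. What the flags mean, and which scanner and software were used, is not stated in the labels or headers. The deposited values were read as log2 ratios. They followed the background-corrected log2 Cy5/Cy3 ratios before normalization (r 0.79 to 0.99, median 0.96), which gave their direction. A correlation does not give the scale, and the authors' centring is not stated. In WT replicate 1 the Cy3 channel is tagged as phenobarbital-treated, but its source name and protocol give the untreated pool and vehicle, which was followed. Per the labels, different spike-ins went into each channel.

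From the scanner values, background was corrected by normexp (offset 50) and each array was normalized by loess over the unflagged spots of mouse probes (360 of the 578 spots), controls having weight 0. Flagged spots were left out of the log2 ratios and copies averaged. A probe passed if at least 2 spots exceeded the background by 2 SD in either channel on at least 12 of 24 arrays. The log2 ratios entered 1 group-means fit (lmFit, eBayes) in limma 3.58.1 under R 4.3.3; figures used Python 3.11.15 and matplotlib 3.10.9. Channel levels were taken after Aquantile normalization, with only spots of 1 flag value left out, so other flagged spots stayed in them. Brightness ranks used all spots. Pairs of arrays within a genotype counted as 1 sample where an F test against the noise of replicate spots gave a p above 0.05; this was decided after the files were seen. The fit and the intensity steps were tested on simulated data. Named by rule were the 3 probes with the highest and the 3 with the lowest Pearson correlation with Mm001 and its neighbours in rank; Mm061, Mm070, Mm027 and details of Mm024 were added after their values were seen. Alternatives to background correction, normalization, spot weights, filters and samples were run. The number of arrays limits the precision.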

Additional observations from a re-analysis of the deposited data

Results flagged for a closer look

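In 12 groups of values of Mm001 (log2 ratio, treated level and pool level in 4 genotypes), 1 array lay far from the rest of its group. In WT replicate 1 the pool level was 9.12 on the normalized log2 scale, against 9.86 to 10.25 on the other 5 WT arrays. Its gap to the nearest array was 0.65 of the range of the group, above Dixon's critical share for 6 arrays. At this level chance flags about 1 in 20 groups. The Cy3 channel of WT replicate 1 is also the one tagged as phenobarbital-treated, although its source name and protocol give the untreated pool. Whether this bears on the value was not tested.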

How the results depend on the processing

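The PXR-deficient mean log2 ratio was -2.28 to -1.52 and PXR-deficient minus WT was -2.47 to -1.18, below 0 in 41 of 41 alternatives each. Many of these alternatives leave out an array of another genotype and cannot change the PXR-deficient mean. Mm001 was also chosen for its low values there, so these counts do not measure robustness. Of 438 values under alternatives, 28 moved by more than the SD between samples, all under 6 settings. Many of the 438 could not move, since leaving out an array does not change the means of other genotypes or the differences between them. The share that moved is therefore no measure of stability. That SD is wide where WT enters, so some changes of sign did not count as moved. Without WT replicates 2 and 6, CAR-deficient minus WT went from -0.19 to 0.54 and CAR/PXR-deficient minus WT from -0.08 to 0.64. PXR-deficient minus WT in the treated level went from -0.69 to 0.17. With 3 pairs of similar arrays counted once each, WT replicates 2 and 6 among them, the WT mean was -0.18. CAR-deficient minus WT was then 0.10 and CAR/PXR-deficient minus WT 0.21. Without background correction the PXR-deficient mean was -1.67, PXR-deficient minus CAR-deficient -1.61 and CAR/PXR-deficient minus PXR-deficient 1.69. With scale normalization between arrays these were -1.78, -1.68 and 1.79, and in the median-centred deposited table -1.82, -1.77 and 1.84. Centring on the spike-ins gave means of -1.60 in PXR-deficient, 0.56 in CAR-deficient and 1.13 in CAR/PXR-deficient liver, and differences of -1.18 (PXR-deficient minus WT), 2.72 (CAR/PXR-deficient minus PXR-deficient), 0.98 (CAR-deficient minus WT), 1.54 (CAR/PXR-deficient minus WT) and 0.56 (CAR/PXR-deficient minus CAR-deficient). The deposited table as given had means of -1.52, 0.53 and 1.39 in the same genotypes, CAR/PXR-deficient minus PXR-deficient 2.90, CAR-deficient minus WT 0.65, CAR/PXR-deficient minus WT 1.51 and CAR/PXR-deficient minus CAR-deficient 0.86. Without normalization the CAR/PXR-deficient mean was -0.84, CAR/PXR-deficient minus PXR-deficient 1.34, CAR/PXR-deficient minus WT -1.08 and CAR/PXR-deficient minus CAR-deficient -0.80. The sign of the differences among genotypes other than PXR-deficient therefore depended on the scaling and, where WT entered, also on the WT arrays counted. The cause was not tested.

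Leaving out 1 replicate at a time gave -2.15 to -2.02 for the PXR-deficient mean and -2.47 to -1.91 for PXR-deficient minus WT. PXR-deficient minus WT in the treated level was -0.96 to -0.34 under the same omissions, and in the pool level 1.36 to 1.62. Of 36 pairs of same-numbered arrays, 14 had a correlation of deviations above 0.1 (range -0.52 to 0.68). Between PXR-deficient and WT arrays it was 5.9e-05, 0.57, 0.55, 0.62, 0.18 and 0.36 in replicates 1 to 6. No values for differently numbered arrays are given, so these correlations do not settle whether the replicate numbers pair the samples. With the replicate number as a block and all 24 arrays counted, PXR-deficient minus WT was -2.20 and the PXR-deficient mean -2.09. Every genotype has the same replicate numbers, so the block could not change these estimates. The standard error of the difference was 0.32 with the block and 0.33 without it. Limits are the unswapped dyes, 1 vehicle pool per genotype, the split among WT arrays, and treated spots at background on WT replicate 4 and PXR-deficient replicate 5.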
